A study of Mus musculus with 5 samples.

Results

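Natural killer (NK) cells carry activating receptors, which signal through tyrosine kinases, and inhibitory receptors, which stop that signal. The genes described here encode 8 enzymes of the stopping side: the phosphatases Ptpn6, Ptpn11, Inpp5d and Ptpn22, the kinase Csk, the ubiquitin ligase Cblb and the diacylglycerol kinases Dgka and Dgkz. They were chosen by name as known brakes of NK signalling, with earlier results of these data known. All 8 were among the 13004 genes of the deposited table and among the 11190 that passed the filter on low values. RNA had been sequenced from live spleen cells sorted as CD3- NK1.1+ DX5+ from C57BL/6 mice aged 8 weeks. There were 2 MycKO libraries (replicates 5 and 6; genotype Mycdelta/delta/Ncr1Cre, Myc deleted by a Cre recombinase that the Ncr1 gene drives in NK cells) and 3 control libraries (replicates 1, 2 and 3; genotype Mycf/f, with loxP-flanked Myc). No Cre is named for the controls, so effects of the Cre allele and of losing Myc cannot be told apart. Whether each library had its own mouse is not stated, and p-values therefore measure only the spread between these libraries, which may be technical.

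An inhibitory NK receptor carries a short tyrosine motif in its tail, the ITIM. Once phosphorylated, the ITIM binds the phosphatases SHP-1 (Ptpn6) and SHP-2 (Ptpn11), which take phosphate off proteins near activating receptors, or SHIP-1 (Inpp5d), which takes a phosphate off the membrane lipid made by phosphoinositide kinases. CSK keeps the SRC-family kinases that start the signal in their inactive form, and PTPN22, which binds CSK, dephosphorylates kinases of the SRC and SYK families. Further along, CBL-B marks signalling proteins with ubiquitin, and the diacylglycerol kinases remove the lipid diacylglycerol, which activates RAS and protein kinase C.

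MYC binds the E-box sequence CACGTG, so the promoters of the genes were searched for it. RefSeq (GRCm38.p6, the mm10 assembly) gave 14 windows for the 8 genes, each the 250 bases before a transcription start. The E-box, which reads the same on both strands, was in 1 of the 14 windows, a promoter of Dgka (chr10:128737613-128737862, minus strand), and in 6.02% of 32851 windows of all genes. The letters AGGAAGT, 1 form of the sequence that ETS-family factors bind, were searched on both strands, and other forms were not searched. AGGAAGT lay in 4 of the 14 windows (1 each of Inpp5d and Ptpn6 and 2 of Dgkz), against 7.69% of all windows. A match is a description of the letters and not a binding site. The windows of Dgka, as the one with an E-box, and of Ptpn6 (chr6:124738710-124738959, minus strand) and Ptpn11 (chr5:121191398-121191647, minus strand), the pair whose ratio is described later, are printed 5′ to 3′ with these letters in capitals. The E-box began 17 bases before the transcription start of the printed Dgka window, and the windows of the other Dgka starts had no E-box. The ETS letters, read on the other strand, began 190 bases before the start of Ptpn6.

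Dgka: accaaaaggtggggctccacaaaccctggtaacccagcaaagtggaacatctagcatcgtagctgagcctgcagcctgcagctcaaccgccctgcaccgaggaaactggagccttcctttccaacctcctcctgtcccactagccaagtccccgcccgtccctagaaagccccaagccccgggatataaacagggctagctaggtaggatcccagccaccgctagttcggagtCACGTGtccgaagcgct
Ptpn6: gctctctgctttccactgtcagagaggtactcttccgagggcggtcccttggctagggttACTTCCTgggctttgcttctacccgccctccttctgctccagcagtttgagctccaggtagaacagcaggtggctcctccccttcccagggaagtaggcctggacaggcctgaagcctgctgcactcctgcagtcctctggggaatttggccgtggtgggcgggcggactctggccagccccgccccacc
Ptpn11: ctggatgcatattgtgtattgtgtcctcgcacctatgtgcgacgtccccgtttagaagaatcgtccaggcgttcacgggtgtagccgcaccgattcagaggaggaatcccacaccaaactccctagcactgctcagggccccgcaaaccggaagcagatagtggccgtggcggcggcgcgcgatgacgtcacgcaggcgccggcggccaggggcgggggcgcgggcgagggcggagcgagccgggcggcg

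The reads that could be assigned to the listed genes came to 5451728 and 13337084 in MycKO 5 and 6 and to 14290690 to 17610826 in the controls. The brakes had 865 to 7846 reads per library, so that counting error was 1.13% to 3.40% of a value. The SD between the 3 controls was 3.60% to 15.9% of the mean. Myc itself was at 12.5 and 8.70 RPKM in MycKO 5 and 6, against 13.0, 23.0 and 21.2 RPKM in controls 1, 2 and 3 (limma adjusted p = 0.297). That value covers the whole gene and does not measure how complete the deletion was. Ncr1, whose regulatory sequence drives the Cre, was at 633 and 744 RPKM in MycKO 5 and 6, against 1619, 931 and 1243 RPKM in controls 1, 2 and 3 (limma adjusted p = 0.143; 0.000689 in the authors' deposited table). Defining NK genes were abundant in every library, with Gzma, a granule protease gene, at 4699 and 5620 RPKM in MycKO and 6584 to 7251 RPKM in controls. Of the 12 NK genes checked, limma called 0, with 6 at an unadjusted p under 0.05, 3 called by limma-voom and 4 by the authors' deposited table, and their summed levels were 10985 and 12853 RPKM in MycKO 5 and 6, against 13581 to 15584 RPKM in controls. Genes that mark other cells of the spleen stood higher in MycKO: 12 of 14 tested macrophage and monocyte genes rose, with summed levels of 1641 and 1603 RPKM in MycKO 5 and 6, against 300 to 447 RPKM in controls. Of the other marker lists, 2 of 9 neutrophil genes rose (summed levels of 607 and 247 RPKM in MycKO, 29.9 to 88.1 RPKM in controls), as did 3 of 9 T cell genes (148 and 207 RPKM, against 40.4 to 62.8 RPKM) and 2 of 11 B and plasma cell genes (373 and 711 RPKM, against 98.9 to 149.7 RPKM). Among red cell and platelet genes 3 of 9 rose (422 and 237 RPKM, against 92.5 to 146.6 RPKM), and among basophil and mast cell genes 0 of 6 (79.3 and 11.4 RPKM, against 6.20 to 6.51 RPKM), with 2 at an unadjusted p under 0.05, 0 called by limma-voom and 1 by the authors' deposited table. In all 3 controls Mpo (neutrophils) and Mcpt8 (basophils) were listed at 0. The most abundant marker of each list was Lyz2 at 734 and 210.5 RPKM in MycKO (55.1 to 219.7 RPKM in controls), S100a8 at 269 and 106.8 RPKM (8.57 to 34.4 RPKM), Cd3g at 62.0 and 75.9 RPKM (8.14 to 14.3 RPKM), Jchain at 232 and 580.1 RPKM (34.8 to 80.2 RPKM), Mcpt8 at 27.3 and 3.76 RPKM, and Car2 at 182 and 126 RPKM (79.7 to 129 RPKM). Ptpn6, Inpp5d and Csk are known to be expressed in myeloid and B cells too. The part of these cells in the values of the brakes was not tested, and in bulk RNA fewer cells of a type and less RNA per cell cannot be told apart.

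The RNA of the 8 brakes differed little between the MycKO and the control libraries. None of the 8 passed limma at an adjusted p under 0.05, where 1.34% of all tested genes passed, and none had an unadjusted p under 0.05, where 13.2% did. Limma-voom on the recovered reads called 0 of the 8 (2.07% of all tested genes), and the test in the authors' deposited table also called 0 (3.4% of all listed genes; lowest adjusted p of the 8, 0.729). In none of the 8 did the MycKO libraries lie wholly above or below the controls, against 29.1% of all tested genes. The differences were positive for 4 and negative for 4 genes and lay between -0.15 and 0.20 on the log2(RPKM + 1) scale. Of all tested genes, 50.7% lay no further from 0 than the largest of the 8. Their median was -0.0067, beside 0.048 over all tested genes. The 95% limma intervals of all 8 lay inside a 1.5-fold difference either way, the widest bounds being 0.701-fold (Ptpn11) and 1.47-fold (Ptpn6). The 1.5-fold limit was not part of the planned tests, and only the main fit was set against it. Over all tested genes 30.6% had such an interval, and 70.9% of the 2780 genes whose mean level was at least that of the lowest of the 8. These intervals bound the RNA differences only for the spread between these libraries, which may be technical, and leave smaller differences undecided.

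**Figure D1:**
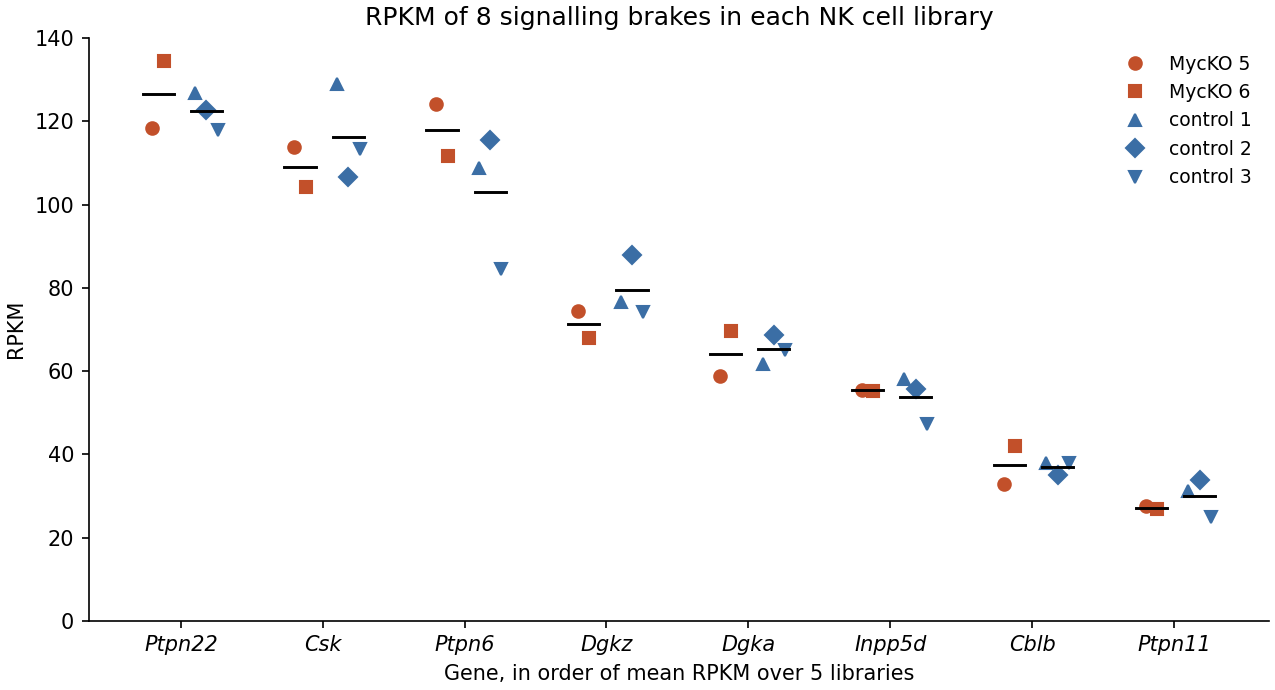
RPKM of the 8 genes (y axis, linear from 0) in each library, with genes on the x axis in order of mean level. Orange symbols are the 2 MycKO libraries, blue symbols the 3 controls, and black lines the group means; in every gene the symbols of the groups overlap in height.

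Ptpn6 encodes SHP-1, the main phosphatase of ITIM receptors in lymphocytes (Entrez 15170; GENCODE vM21, mm10 chromosome 6, 124720707 to 124738714, minus strand, protein-coding). It was measured at 124.2 and 111.7 RPKM in MycKO 5 and 6, against 108.8, 115.7 and 84.5 RPKM in controls 1, 2 and 3. MycKO 5 was the highest library and control 3 the lowest, while MycKO 6 lay between the controls. The means were 118 ± 8.86 RPKM in MycKO (SD, n = 2) and 103 ± 16.4 RPKM in controls (SD, n = 3). The log2 fold change of 0.20 (SE 0.15, 95% interval -0.15 to 0.56) was the largest of the 8 and did not pass limma (adjusted p = 0.682). Without control 3 it was 0.069.

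Ptpn11 encodes SHP-2, which has the same domain plan as SHP-1 and in many cell types also promotes RAS signalling (Entrez 19247; chromosome 5, 121130533 to 121191397, minus strand). It was at 27.5 and 26.8 RPKM in MycKO 5 and 6, against 31.1, 33.9 and 24.9 RPKM in controls 1, 2 and 3. Both MycKO libraries lay between control 3 and control 1. The means were 27.1 ± 0.492 RPKM in MycKO (SD, n = 2) and 30.0 ± 4.61 RPKM in controls (SD, n = 3), a log2 fold change of -0.13 (SE 0.16, limma adjusted p = 0.848). Its interval, -0.51 to 0.26, was the widest among the 8.

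Inpp5d encodes SHIP-1 (Entrez 16331; chromosome 1, 87620312 to 87720507, plus strand). It was at 55.4 and 55.3 RPKM in MycKO 5 and 6, against 58.2, 55.6 and 47.3 RPKM in controls 1, 2 and 3. The MycKO libraries lay between the second highest and the lowest control. Means of 55.4 ± 0.0676 RPKM in MycKO (SD, n = 2) and 53.7 ± 5.72 RPKM in controls (SD, n = 3) gave a log2 fold change of 0.049 (95% interval -0.25 to 0.35, limma adjusted p = 0.939). The SD of MycKO rests on 2 libraries and is smaller than the counting error, so it understates the error. In control 3 all 3 phosphatases that bind ITIMs, Ptpn6, Ptpn11 and Inpp5d, were at their lowest. This was not particular to them, as Ptpn22 was also lowest in control 3 (118.1 RPKM). The other brakes, Csk, Cblb, Dgka and Dgkz, were each lowest in a MycKO library.

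Ptpn22 encodes a lymphoid phosphatase of SRC- and SYK-family kinases (Entrez 19260; chromosome 3, 103859795 to 103912247, plus strand). It was at 118.5 and 134.6 RPKM in MycKO 5 and 6, against 126.9, 122.9 and 118.1 RPKM in controls 1, 2 and 3. One MycKO library was the highest of all and the other the lowest but one. Its log2 fold change was 0.043 with the smallest SE of the 8 (0.11; 95% interval -0.21 to 0.29, limma adjusted p = 0.934). The kinase gene Csk (Entrez 12988; chromosome 9, 57626646 to 57653631, minus strand) was at 114.0 and 104.2 RPKM in MycKO 5 and 6, against 129.1, 106.7 and 113.3 RPKM in controls 1, 2 and 3. MycKO 6 was the lowest library and MycKO 5 lay between the controls, and the log2 fold change was -0.090 (95% interval -0.37 to 0.19, limma adjusted p = 0.857).

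Cblb encodes CBL-B, whose loss in mice lowers the threshold for NK cell activation (Entrez 208650; chromosome 16, 52031225 to 52208048, plus strand). It was at 33.0 and 42.1 RPKM in MycKO 5 and 6, against 38.0, 34.9 and 37.9 RPKM in controls 1, 2 and 3. The MycKO libraries were the lowest and the highest of the 5, with the controls between them. Group means of 37.5 ± 6.41 RPKM in MycKO (SD, n = 2) and 36.9 ± 1.75 RPKM in controls (SD, n = 3) were the closest of the 8, with a log2 fold change of 0.013 (95% interval -0.33 to 0.35, limma adjusted p = 0.990). The sign of this value was not stable: it was -0.16 without MycKO 6 and -0.026 without control 2, against 0.18 without MycKO 5, and it was also negative under both other scalings and in the authors' deposited table.

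Dgka and Dgkz encode the alpha and zeta diacylglycerol kinases, which are the main forms in mouse T cells. Dgkz (Entrez 104418; chromosome 2, 91932824 to 91975864, minus strand) was at 74.6 and 67.9 RPKM in MycKO 5 and 6, against 76.5, 87.8 and 74.2 RPKM in controls 1, 2 and 3. MycKO 6 was the lowest library, and MycKO 5 was just above control 3. Means of 71.2 ± 4.71 RPKM in MycKO (SD, n = 2) and 79.5 ± 7.28 RPKM in controls (SD, n = 3) gave a log2 fold change of -0.15 (95% interval -0.44 to 0.13, limma adjusted p = 0.702), the lowest of the 8. Dgka (Entrez 13139; chromosome 10, 128720134 to 128744855, minus strand), the member with an E-box in a promoter, was at 58.8 and 69.6 RPKM in MycKO 5 and 6, against 61.8, 68.7 and 65.2 RPKM in controls 1, 2 and 3. Its MycKO libraries were the lowest and the highest of the 5, with a log2 fold change of -0.026 (95% interval -0.31 to 0.26, limma adjusted p = 0.969). Whether reads were counted by strand is not stated, and exons of Ptpn6, Dgka and Dgkz share 6.96%, 2.21% and 3.54% of their bases with genes on the other strand (Gm20531, Pmel and Gm9821). Pmel was at 0.430 and 0.668 RPKM in MycKO 5 and 6 and at 0 to 0.624 RPKM in controls.

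**Figure D2:**
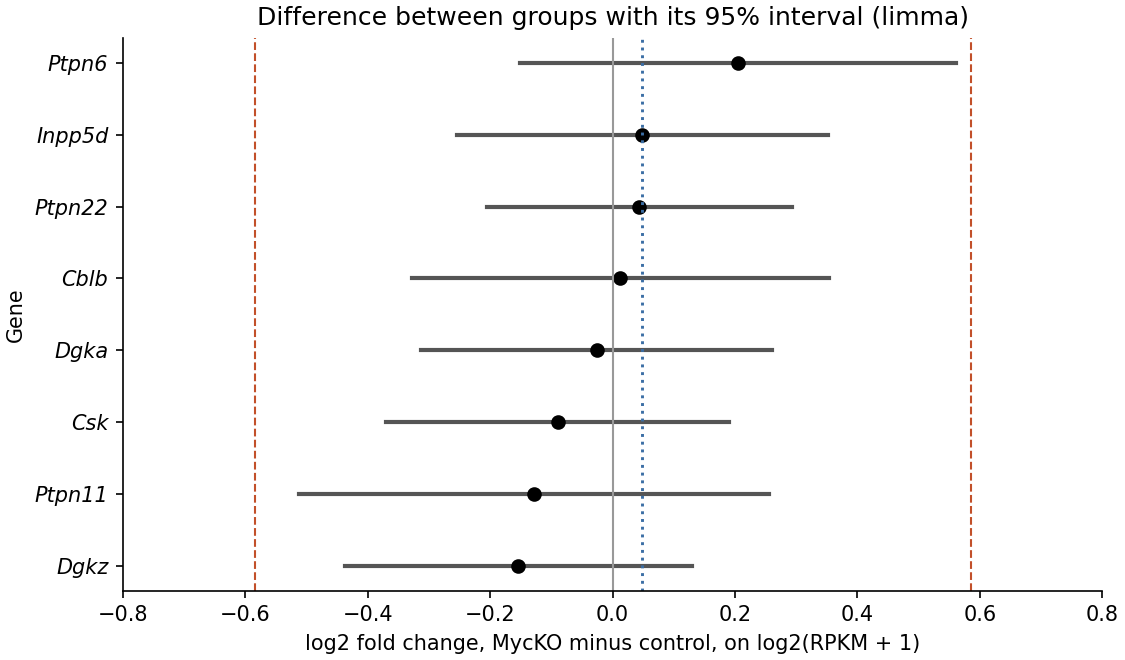
Log2 fold change, MycKO minus control, on the log2(RPKM + 1) scale (x axis) for each gene (y axis), with points for the limma estimate and bars for its 95% interval. Dashed orange lines mark a 1.5-fold difference and the dotted blue line the median of all tested genes (0.048); every bar crosses 0 and stays between the dashed lines.

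RPKM is scaled by transcript length, so levels can be set beside each other between genes. Averaged over the 5 libraries, the order was Ptpn22, Csk, Ptpn6, Dgkz, Dgka, Inpp5d, Cblb and Ptpn11. By control mean, Ptpn22, Csk and Ptpn6 ranked 483, 517 and 585 among the 13004 genes, and Ptpn11 ranked 2651. Ptpn22 (118.1 to 134.6 RPKM over all libraries), Csk (104.2 to 129.1 RPKM) and Ptpn6 (84.5 to 124.2 RPKM) overlapped, and each of the 3 was the highest in at least 1 library. Ptpn6 exceeded Dgkz in all 5 libraries, although its lowest value (84.5 RPKM, control 3) was below the highest of Dgkz (87.8 RPKM, control 2). Dgkz exceeded Dgka in 4 of 5 libraries and not in MycKO 6. Inpp5d (47.3 to 58.2 RPKM) lay wholly below Dgka (58.8 to 69.6 RPKM) and wholly above Cblb (33.0 to 42.1 RPKM), and Cblb exceeded Ptpn11 (24.9 to 33.9 RPKM) in all 5 libraries with overlapping ranges. Summed over the 8 genes, levels were 606 and 612 RPKM in MycKO 5 and 6, against 631, 626 and 565 RPKM in controls 1, 2 and 3.

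The brakes belong to families, and the NK libraries held their members in unequal amounts. Ptpn6 made up 81.9% and 80.7% of the summed RPKM of Ptpn6 and Ptpn11 in MycKO 5 and 6, against 77.8%, 77.3% and 77.2% in controls 1, 2 and 3. The log2 ratio of Ptpn6 over Ptpn11 was 2.14 and 2.02 in MycKO 5 and 6, against 1.77, 1.74 and 1.72 in controls 1, 2 and 3. Both MycKO libraries lay above all controls, and the controls spanned little. The difference was 0.33 (MycKO 2.08 ± 0.0823, SD, n = 2; control 1.74 ± 0.0267, SD, n = 3; two-sided exact permutation p = 0.1, the smallest that 10 splits of 5 libraries allow; adjusted over 4 ratios, 0.4). The test thus could not pass the threshold, and leaving out each library gave 0.27 to 0.39. In the same libraries the summed macrophage and monocyte markers were at 1641 and 1603 RPKM in MycKO, against 300 to 447 RPKM in controls. The part of such cells in this ratio was not tested.

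The other ratios varied more between libraries. Cblb and its relative Cbl were at similar levels, with Cbl at 25.3 and 30.0 RPKM in MycKO 5 and 6, against 32.3, 30.4 and 43.2 RPKM in controls 1, 2 and 3. Their log2 ratio was 0.37 and 0.47 in MycKO, against 0.23, 0.20 and -0.18 in controls, without overlap (difference 0.34, exact permutation p = 0.2, adjusted 0.4). Inpp5d made up 88.6% to 96.0% of the summed RPKM of Inpp5d and Inppl1, the SHIP-2 gene, in the 5 libraries. The log2 ratio over Inppl1, which was at only 2.30 to 6.11 RPKM, was 4.09 and 3.27 in MycKO, against 3.47, 3.66 and 2.76 in controls (difference 0.39, exact permutation p = 0.6, adjusted 0.6). The groups overlapped, as they did for Dgkz over Dgka, at 0.34 and -0.034 in MycKO, against 0.30, 0.35 and 0.18 in controls (difference -0.13, exact permutation p = 0.6, adjusted 0.6). Dgkz, Dgka and the delta form Dgkd were the abundant diacylglycerol kinases, with 34.5% to 42.1%, 31.1% to 35.3% and 19.5% to 22.6% of the family's summed RPKM. Csk made up 95.8% and 98.1% of the summed RPKM of Csk and its relative Matk in MycKO 5 and 6, against 99.5%, 100% and 98.97% in controls 1, 2 and 3, where Matk was at 0 to 1.18 RPKM. Matk was at 5.04 and 2.03 RPKM in MycKO, and its difference did not pass (limma adjusted p = 0.254).

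**Figure D3:**
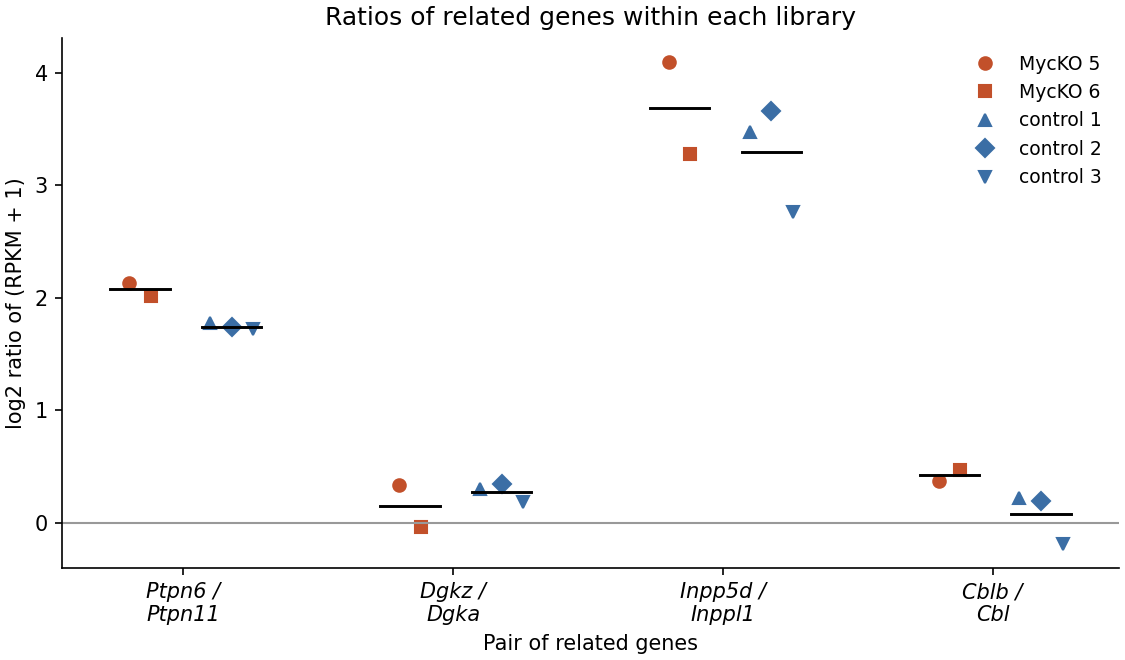
Log2 ratio of RPKM + 1 between related genes (y axis) within each library, for 4 pairs (x axis). Orange symbols are MycKO, blue symbols controls, black lines group means; for Ptpn6 over Ptpn11 the MycKO libraries at 2.14 and 2.02 lie above the controls at 1.72 to 1.77.

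Other enzymes of the same kinds were described from lists of names. Of 25 tested tyrosine phosphatases besides the members, none passed limma and 6 reached an unadjusted p under 0.05. Calls numbered 2 in limma-voom and 3 in the authors' deposited table, and the median log2 fold change over the list was 0.11. Ptprj, a receptor phosphatase, was at 17.2 and 19.3 RPKM in MycKO 5 and 6, against 6.91 to 9.26 RPKM in controls (log2 fold change 1.15, limma adjusted p = 0.0532, limma-voom 0.00238). Ptp4a3, of the PRL phosphatases, was at 28.6 and 30.3 RPKM in MycKO, against 47.9, 48.8 and 45.2 RPKM in controls (-0.67, limma adjusted p = 0.0513, limma-voom 0.0218). In both genes the groups did not overlap, as in 10 of the 25 tested in this list and in 29.1% of all tested genes. Dusp6, which dephosphorylates ERK kinases, was at 38.3 and 20.7 RPKM in MycKO, against 16.4, 13.4 and 10.1 RPKM in controls (limma adjusted p = 0.168). The list named for inositol lipid phosphatases held 15 tested genes, and whether each has that activity was not tested. None of these genes passed limma, and their median was -0.056. There were 3 at an unadjusted p under 0.05, 1 called by limma-voom and 2 called in the authors' deposited table. Inpp4b was low, at 3.52 and 4.52 RPKM in MycKO, against 0.519, 0.654 and 0.889 RPKM in controls (1.57, limma adjusted p = 0.0831, limma-voom 0.00371). Inpp5f (1.00) and Ocrl (0.66) had limma adjusted p-values of 0.159 and 0.360.

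Among 15 tested ubiquitin ligases and UBASH proteins, limma, limma-voom and the authors' deposited table each called 0, with 3 at an unadjusted p under 0.05 and a median of 0.042. Cish, a suppressor of cytokine signalling that restrains interleukin 15 responses of mouse NK cells, had a log2 fold change of 1.58 (limma adjusted p = 0.104), and Socs3 and Stub1 were at 0.89 and -0.60. The 5 other diacylglycerol kinases tested also gave 0 calls by each of the 3, with 1 unadjusted p under 0.05 and a median of 0.14. Dgki was barely detected, with 1.28 and 1.27 RPKM in MycKO, against 0, 0.173 and 0 RPKM in controls, and Dgke and Dgkd were at 0.58 and 0.14. Of 22 tested CSK anchors and brake adaptors, 7 had an unadjusted p under 0.05 in limma, against 13.2% of all tested genes. The median was 0.12. Limma and limma-voom called 0 of them, and the authors' deposited table called 1. The called one was Dok2, an adaptor that brings RAS inhibitors to receptors, at 134.1 and 145.6 RPKM in MycKO, against 182.8, 191.6 and 204.8 RPKM in controls (-0.46, limma adjusted p = 0.0955, 0.0164 in the authors' deposited table). Both MycKO libraries were below all controls for Dok2. The groups did not overlap in 8 of the 22 genes of this list, against 29.1% of all tested genes. The Dok2 relative Dok3 (1.43) and the RAS pathway inhibitor Spry2 (-0.45) had limma adjusted p-values of 0.109 and 0.221.

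Some receptors that recruit these phosphatases changed. Of 26 tested genes in the list of ITIM receptors, 4 rose and 1 fell in limma, against 1.24% and 0.0983% of all tested genes. The median log2 fold change of the list was 0.53 beside 0.048 over all. The list also holds Klra8, an activating receptor without an ITIM, and Cd244, whose tail carries a related motif. Sirpa, the macrophage receptor for CD47, was at 58.7 and 64.2 RPKM in MycKO 5 and 6, against 9.17, 15.0 and 8.46 RPKM in controls (2.43, limma adjusted p = 0.00781). It passed without each library in turn (adjusted p = 0.00436 to 0.0436). Clec12a, a lectin of myeloid cells, was at 23.1 and 23.7 RPKM in MycKO, against 4.33, 5.29 and 4.79 RPKM in controls (2.07, limma adjusted p = 0.00781), and missed the threshold without MycKO 5 (0.0589). Pirb (2.21) and Cd300a (1.83), also known from myeloid cells, rose with limma adjusted p-values of 0.0245 and 0.0329, and of the fits that left out a library both passed only in that without control 2. Cd300a also missed with a pseudocount of 0.1 (0.0539). The summed macrophage and monocyte markers in these libraries were at 1641 and 1603 RPKM in MycKO, against 300 to 447 RPKM in controls, and their part in these rises was not tested.

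Klrg1, an inhibitory receptor of mature NK cells, fell to 43.5 and 67.2 RPKM in MycKO 5 and 6, against 145.2, 163.5 and 114.9 RPKM in controls (log2 fold change -1.35, limma adjusted p = 0.0340). It missed the threshold without control 1 (0.118), control 3 (0.0732) or MycKO 5 (0.168) and with a pseudocount of 0.1 (0.0509). Limma-voom called 8 of the 26 genes in the ITIM list, against 2.07% of all tested genes. It added Pecam1, Pilra and Lilrb4a, which were named after their values were seen. The authors' deposited table called 9 of the list, against 3.4% of all listed genes. In limma 11 of the list had an unadjusted p under 0.05, against 13.2% of all tested genes. Genes of the Klra family in this list have near-identical copies, so reads may have been divided between them. Of 34 tested kinases, adaptors and lipases that the brakes act on or near, 2 rose and none fell in limma. Over all tested genes 1.24% rose and 0.0983% fell. The median of the list was -0.048. There were 2 called by limma-voom, 4 called in the authors' deposited table and 5 at an unadjusted p under 0.05. Lyn, of the SRC family that CSK holds inactive, was at 73.9 and 72.6 RPKM in MycKO, against 48.6, 42.1 and 40.4 RPKM in controls (0.74, limma adjusted p = 0.0431). It missed without each library in turn (0.0607 to 0.287), under median-of-ratios (0.0612) and upper-quartile scaling (0.0541) and with a pseudocount of 0.1 (0.0589). Lyn is known in myeloid and B cells. Summed macrophage and monocyte markers were at 1641 and 1603 RPKM in MycKO, against 300 to 447 RPKM in controls. Summed B and plasma cell markers were at 373 and 711 RPKM in MycKO, against 98.9 to 149.7 RPKM in controls. The part of these cells in the values of Lyn was not tested. Zap70, a kinase that signals from activating NK receptors, was at 48.1 and 43.8 RPKM in MycKO, against 61.5, 70.4 and 60.3 RPKM in controls (-0.47, limma adjusted p = 0.151, limma-voom 0.125, and 0.0280 in the authors' deposited table). Both MycKO libraries were below all controls for Zap70. The groups did not overlap in 20 of the 34 genes of this list, against 29.1% of all tested genes.

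**Figure D4:**
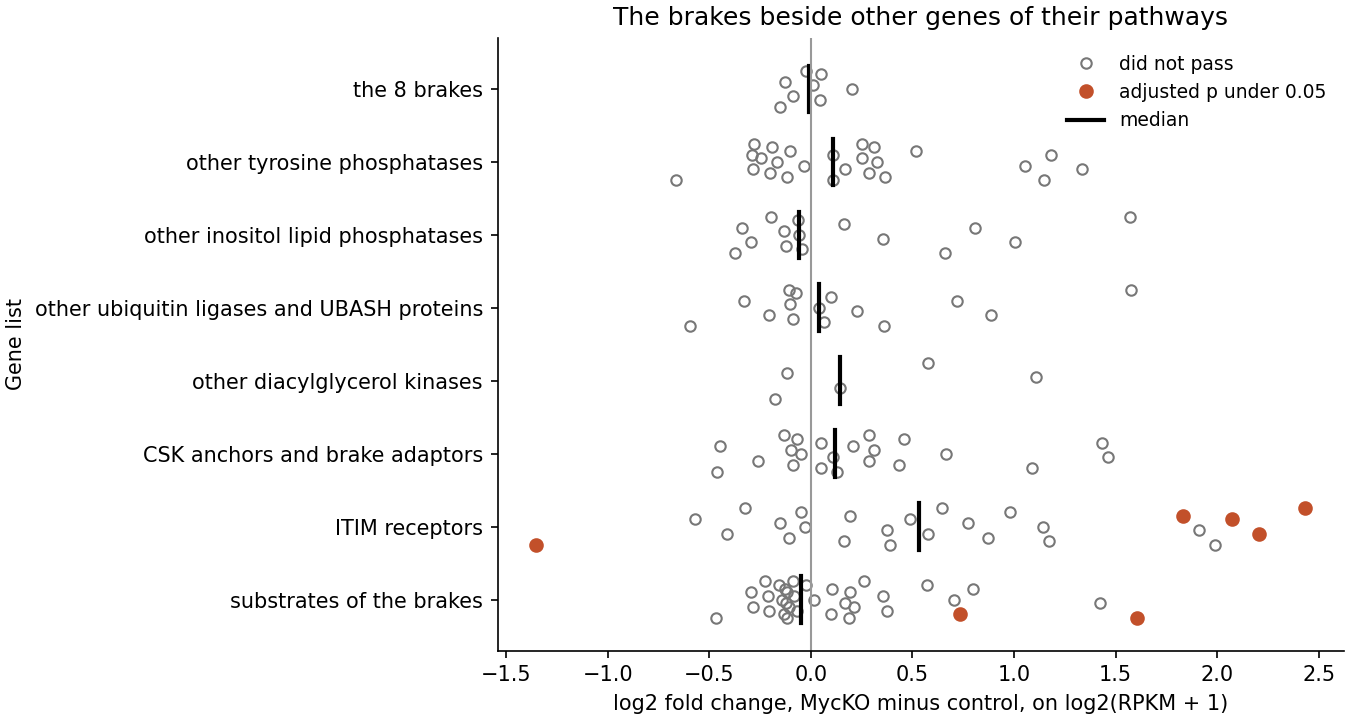
Log2 fold change, MycKO minus control, on the log2(RPKM + 1) scale (x axis) of each tested gene in the 8 brakes and 7 lists of related genes (y axis; vertical scatter within a list has no meaning). Filled orange points passed limma at an adjusted p under 0.05, open points did not, and black bars are medians; the brakes lie between -0.15 and 0.20, and the filled points are 5 ITIM receptors and 2 substrates of the brakes.

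Among 142 tested genes of the 7 lists, the one whose centred log2 values over the 5 libraries lay nearest to a brake's was Pik3r1 for Dgkz (root mean square difference 0.035), Pik3cd for Dgka (0.041) and for Ptpn22 (0.059), and Dusp5 for Ptpn6 (0.044). For Csk it was Tyrobp (0.055), for Cblb Itch (0.062), for Inpp5d Syk (0.068) and for Ptpn11 Akt1 (0.070). The brakes' own values spread by 0.070 (Ptpn22) to 0.19 (Ptpn6) around their means, so that over 5 libraries sharing their depth and makeup a small distance describes similar values and no more.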

How the data were processed

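RNA of sorted splenic NK cells (2 MycKO and 3 control libraries) was sequenced from strand-specific libraries, per the labels' protocols. The submitters' processing notes name TopHat, edgeR and the build mm10; versions, annotation, counting tool and strand setting: not given in the sources used here. Per the file headers, the deposited table gives 1 value per library, in RPKM, with the authors' mean normalized signal, fold change (ratio), log2 fold change, p-value and adjusted p-value; the authors' test is not named. The design had planned for counts; the table holds RPKM, so the test planned for that unit was applied.

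The analysis used log2(RPKM + 1), which understates changes of low genes. Genes reaching 1 RPKM in 2 or more libraries were tested with limma 3.58.1 (R 4.3.3, with a trend in the variance; degrees of freedom 3 residual, 4.41 prior), two-sided, with Benjamini-Hochberg adjustment over 11190 genes and a threshold of 0.05. Folds and 95% intervals are 2 to the power of values on that scale. Group means and RPKM together gave the reads behind each value; all (100%) were whole within 0.0001 of a read, and served for depth and limma-voom. Ratios were tested by exact permutation. The procedure was tested on simulated data.

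Named were Myc, Ncr1, the 8 brakes and the list gene nearest to each, every gene past the threshold and the 3 smallest p of each of 7 pathway lists, and the most abundant gene of each of 7 marker lists; others were chosen after their values were seen. Some genes are not reported here. Members and lists were chosen with earlier results of these data known. Coordinates are from GENCODE vM21 (mm10). Alternatives were other scalings, a pseudocount of 0.1, no filter, limma-voom, a threshold of 0.01 and leaving out each library; the authors' deposited test was added after seeing the data. Figures were drawn with matplotlib 3.10.9 (Python 3.11.15).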

Additional observations from a re-analysis of the deposited data

How the results depend on the processing

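None of the 8 brakes passed under any alternative run (88 values, lowest adjusted p 0.436, limma without control 2). Ptpn6, Ptpn11, Dgkz and Csk kept their sign in all of them. Values near 0 turned sign: under median-of-ratios scaling Inpp5d (-0.0040), Ptpn22 (-0.0098) and Cblb (-0.040); under upper-quartile scaling Ptpn22 (-8.5e-05) and Cblb (-0.030); in limma-voom Dgka (0.0076); in the authors' deposited table Inpp5d (-0.017), Ptpn22 (-0.013) and Cblb (-0.036). Leaving out each library gave 0.069 to 0.29 for Ptpn6, -0.25 to -0.036 for Ptpn11, -0.039 to 0.11 for Inpp5d, -0.048 to 0.13 for Ptpn22, -0.15 to -0.013 for Csk, -0.16 to 0.18 for Cblb, -0.15 to 0.093 for Dgka and -0.22 to -0.081 for Dgkz. The ratio differences were then 0.27 to 0.39 for Ptpn6 over Ptpn11, 0.21 to 0.42 for Cblb over Cbl, -0.31 to 0.058 for Dgkz over Dgka and -0.022 to 0.80 for Inpp5d over Inppl1.

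Of all tested genes 150 passed, and of the genes in the 7 pathway lists 7 passed. These counts were 80 and 4 with a pseudocount of 0.1, 232 and 13 in limma-voom, 24 and 2 at a threshold of 0.01, and 442 and 19 in the authors' deposited table. Without each library they were 34 (without MycKO 5) to 217 (without control 2) and 1 to 10. Over all tested genes the count was also low without control 1 (39) and without control 3 (35). A fit without a MycKO library had only 1 MycKO library left. The cause of these differences was not tested. MycKO 5 had the fewest reads (5451728), and the part of depth was not tested. The labels do not say whether MycKO and control libraries were paired, so no paired analysis was made.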
